A study of Mus musculus with 3 samples.

Results

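The family of miR-15 and miR-107 is a group of miRNAs that share the bases AGCAGC near their 5′ ends. Its features were found by name among the 1079 mouse miRNAs of a miRNA microarray, as the 5p arms of miR-15a, miR-15b, miR-16, miR-195a, miR-322, miR-497 and miR-503 and the 3p arms of miR-103 and miR-107, which gave 9 members. The arrays hold total RNA of matrix vesicles (MVs), the small vesicles that osteoblasts leave in the extracellular matrix, here from MC3T3-E1 cells, an established osteoblastic line from mouse calvaria. MVs were released with 500 units/mL collagenase and spun down in an ultracentrifuge, and 100 ng of RNA from each of 3 independent isolations was labeled with Cy3 for 1 array each. All 3 arrays form 1 group, and neither cells nor other vesicles were analysed here, so no test was possible and all values below are descriptions. The labels state that the cultures held beta-glycerophosphate, which feeds mineral deposition, whereas the methods state that MVs came from cultures without it. Isolations are numbered by the sample titles, since the source name carries replicate 1 on every sample.

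A miRNA guides an Argonaute protein to messenger RNAs that pair with its seed, the bases close to its 5′ end, and so lowers their translation and stability. Members of this family therefore have overlapping sets of predicted targets, of which cyclins and other cell cycle genes and the survival gene Bcl2 are the best known. Each hairpin gives a main arm and an opposite arm, and the opposite arm carries another seed. miR-16 is often used as an internal control when miRNAs of body fluids and vesicles are measured. The study used it as the control for bone matrix RNA and for conditioned media, with U6 for MVs and cells.

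The mature sequences are shown first because the seed defines the family and because several members differ so little outside it. They are RefSeq entries of the mouse build GRCm38.p6, written 5′ to 3′, with bases 2 to 8, the seed, in capitals.
miR-15a-5p: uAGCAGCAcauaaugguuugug
miR-15b-5p: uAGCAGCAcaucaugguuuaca
miR-16-5p: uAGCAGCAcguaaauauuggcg
miR-195a-5p: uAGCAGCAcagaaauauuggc
miR-497-5p: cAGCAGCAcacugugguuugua
miR-322-5p: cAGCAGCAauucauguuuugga
miR-503-5p: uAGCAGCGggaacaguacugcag
miR-103-3p: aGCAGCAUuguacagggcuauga
miR-107-3p: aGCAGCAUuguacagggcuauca

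The members fell into 3 seed groups. The seed AGCAGCA is carried by 6 members (miR-15a-5p, miR-15b-5p, miR-16-5p, miR-195a-5p, miR-497-5p and miR-322-5p), AGCAGCG by miR-503-5p alone, and GCAGCAU by miR-103-3p and miR-107-3p, in which the shared bases stand 1 position closer to the 5′ end. The letters AGCAGC were searched on the given strand within bases 1 to 8 of the 876 array miRNAs that matched a RefSeq mature sequence, 81.2% of all mouse miRNAs on the array. They were found in 9 of them, or 1.03%, and these were the 9 members. A further 4 miRNAs of the sequence table hold the letters there but have no feature on the array (miR-195b, miR-6342, miR-6353 and miR-6419).

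Over the whole sequence, seed included, the closest members were miR-103-3p and miR-107-3p, which were identical at 22 of 23 bases. They differed by G22C, counted from 1 at the 5′ end with the base of the first-named miRNA first. miR-16-5p and miR-195a-5p shared 19 of 21 bases and differed by G10A and U11G. miR-15a-5p and miR-15b-5p shared 18 of 22 bases and differed by A12C, G20A, U21C and G22A. By contrast, miR-16-5p and miR-497-5p shared only 11 of 22 bases although their seeds are the same. Whether the probes of such close members also bind each other's miRNA was not tested, and the values of miR-103-3p against miR-107-3p and of miR-16-5p against miR-195a-5p are uncertain in that respect.

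Most members are encoded as pairs of hairpins. Mir15a and Mir16-1 lie 54 bases apart on the minus strand of chromosome 14 within the span of the long noncoding RNA Dleu2, the locus whose human counterpart is often lost in chronic lymphocytic leukemia. The miR-15a-5p sequence is at chr14:61632075-61632096 and this copy of miR-16-5p at chr14:61631936-61631957. Mir15b and Mir16-2 lie 66 bases apart on the plus strand of chromosome 3 within Smc4, which encodes a condensin subunit, with miR-15b-5p at chr3:69009775-69009796 and the other copy of miR-16-5p at chr3:69009918-69009939. The array has a single feature for miR-16-5p, so the products of its 2 hairpins cannot be told apart by the main arm.

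Mir497 and Mir195a lie 241 bases apart on the plus strand of chromosome 11, with miR-497-5p at chr11:70234730-70234751 and miR-195a-5p at chr11:70235062-70235082, and no gene other than miRNA genes spans them in the table used. Mir322 and Mir503 lie 200 bases apart on the minus strand of the X chromosome within the noncoding gene C430049B03Rik, with miR-322-5p at chrX:53054306-53054327 and miR-503-5p at chrX:53054027-53054049. The remaining members lie within genes for pantothenate kinases, the enzymes that start coenzyme A synthesis. These are miR-103-3p at chr2:131288103-131288125 (plus strand, Pank2) and chr11:35782447-35782469 (plus strand, Pank3), and miR-107-3p at chr19:34820700-34820722 (minus strand, Pank1). The gene table gives spans only, so no statement is made on exons and introns.

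Detection was taken from the call of the scanner software for each array. By this call 0 of 9 members were detected in isolation 1, where 7.97% of all mouse miRNAs were detected, and 0 of 9 in all 3 isolations, against 7.78% of all mouse miRNAs. In isolation 2, 7 of 9 members were detected, where 16.6% of all mouse miRNAs were, and in isolation 3 the same 7 members were detected, where 15.2% of all mouse miRNAs were. The detected members were miR-15a-5p, miR-15b-5p, miR-16-5p, miR-195a-5p, miR-497-5p, miR-103-3p and miR-107-3p. Thus 5 of the 6 members with the seed AGCAGCA and both members with GCAGCAU were detected in isolations 2 and 3 (15.2% of all mouse miRNAs were detected in both and 16.7% in at least 1 isolation), and 7.41% of all mouse miRNAs had this pattern of being missed in isolation 1 alone. miR-322-5p and miR-503-5p, which promote cell cycle exit and muscle differentiation, were not detected in any isolation.

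The plan of the paired hairpins shows the calls by arm. Both arms were detected for Mir15a, Mir16-1, Mir16-2 and Mir195a, and the main arm alone for Mir15b and Mir497. Neither arm of Mir322 or Mir503 was detected, nor were any of the 9 features of miR-351, miR-542, miR-450a and miR-450b, which follow Mir503 on the same strand of the X chromosome. The hairpin pair on the X chromosome was thus the only 1 of the 4 pairs with no detected product. Over all mouse miRNAs 16.7% were detected in at least 1 isolation, so an absence of calls in lists this short is near the background.

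**Figure D1:**
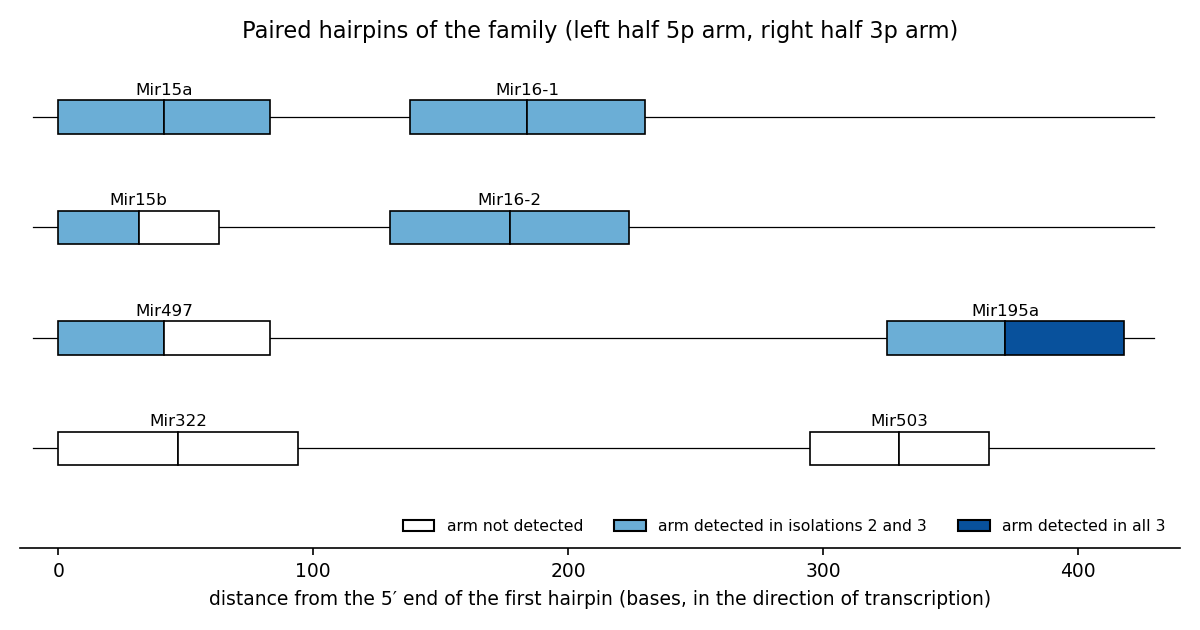
Plan of the 4 hairpin pairs of the family, with the distance in bases from the 5′ end of the first hairpin on the x axis and each hairpin drawn as a box with its 5p arm on the left and its 3p arm on the right. Pale blue boxes mark arms detected in isolations 2 and 3, the dark blue box marks miR-195a-3p, detected in all 3 isolations, and white boxes mark arms detected in none. Mir322 and Mir503 are white throughout.

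Signals were on the lower side of what the arrays measured. The 7 detected members together held 0.375% of the summed signal of detected mouse miRNAs in isolation 2 and 0.384% in isolation 3. In each of these isolations 6 of the 7 lay below the median signal of detected miRNAs (34.0 and 30.1, respectively), and miR-15b-5p lay above it. Intensities of different probes respond differently to the same amount of RNA, so members are ordered below by brightness, which need not be their order by amount.

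miR-15b-5p (mmu-miR-15b-5p in the tables), from the Smc4 locus, had the highest signal of the family. Its total gene signal was 44.6 in isolation 2 and 39.4 in isolation 3, which is a log2 signal of 5.39 ± 0.13 (SD, n = 2). It ranked 82nd of 179 detected miRNAs in isolation 2 and 73rd of 164 in isolation 3. mmu-miR-15a-5p, which differs from it at 4 bases, gave 20.9 and 17.7 (4.27 ± 0.17) and ranked 125th and 112th.

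mmu-miR-16-5p, the member used as a control in other samples, gave a signal of 25.0 in isolation 2 and 20.9 in isolation 3, with a mean log2 signal of 4.51 ± 0.18 (SD, n = 2). It was the second brightest member, 113th of 179 and 100th of 164 detected miRNAs. miR-195a-5p, known for slowing the cell cycle of heart muscle cells after birth, gave 20.4 and 18.4 (4.27 ± 0.11), and miR-497-5p, its neighbor on chromosome 11, gave 22.5 and 18.1 (4.34 ± 0.22). These 3 members and miR-15a-5p had signals between 17.7 and 25.0 in both isolations, so that their ranges overlapped.

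miR-103-3p and miR-107-3p, known regulators of insulin sensitivity and of the miRNA-processing enzyme Dicer, were the dimmest of the detected members. mmu-miR-103-3p gave 15.9 in isolation 2 and 12.6 in isolation 3 (log2 signal 3.82 ± 0.23, SD, n = 2). mmu-miR-107-3p gave 9.91 and 8.14 (3.17 ± 0.20) and ranked 161st of 179 and 154th of 164, close to the detection limit. Both were lower than all 5 detected members with the seed AGCAGCA in each isolation.

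Within the order of mean signals, 3 of the 6 steps between neighbors were larger than the combined scanner error of both miRNAs in each isolation. These were the step from miR-15b-5p to miR-16-5p (0.88 on the log2 scale), from miR-15a-5p to miR-103-3p (0.44) and from miR-103-3p to miR-107-3p (0.66). miR-16-5p stood above miR-497-5p in both isolations, but by 0.18, less than the error. miR-497-5p and miR-195a-5p, and miR-195a-5p and miR-15a-5p, changed places between isolations. The family thus had 1 bright member, 4 members that the arrays did not separate, and 2 dim members. Errors here are those deposited by the scanner software and cover a single array, not the spread between isolations.

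**Figure D2:**
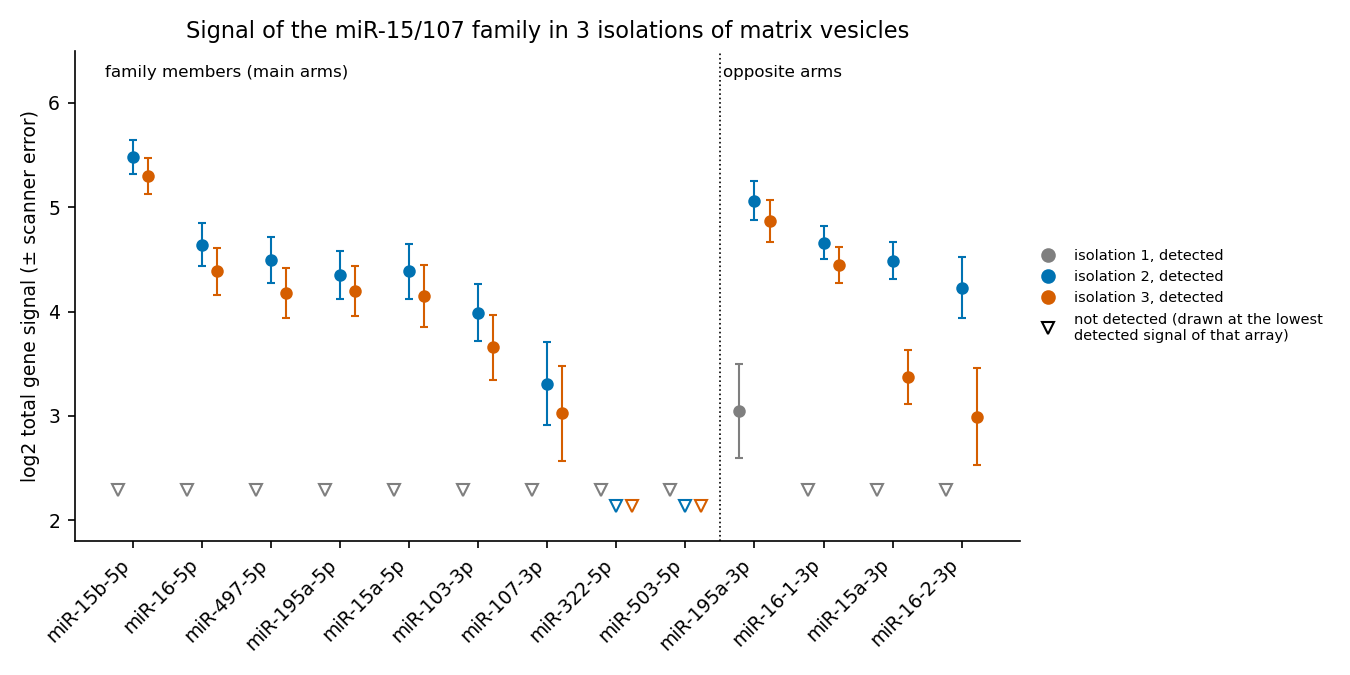
Log2 total gene signal (y axis) of the 9 family members, ordered by mean signal, and of the 4 detected opposite arms (x axis), with 1 point per isolation and bars for the scanner error on the log2 scale. Open triangles mark arrays without detection, drawn at the dimmest detected signal. All 9 members have a triangle for isolation 1, and miR-322-5p and miR-503-5p have triangles only.

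The signal over its error, a measure of how firmly each value is set, ran from 3.17 for miR-107-3p in isolation 3 to 8.94 for miR-15b-5p in isolation 2. For miR-16-5p it was 7.02 in isolation 2 and 6.52 in isolation 3, against medians of 8.59 and 7.79 over all detected miRNAs. miR-15b-5p was above the median in both isolations and the other 6 members were below it. miR-15a-5p (5.41 and 4.83) was below miR-195a-5p (6.30 and 6.02) although their mean signals were alike, and miR-103-3p gave 5.33 and 4.60. Among the members, miR-16-5p therefore had the second highest ratio after miR-15b-5p in each isolation, and it stood 115th of 179 and 101st of 164 among all detected miRNAs by this ratio.

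**Figure D3:**
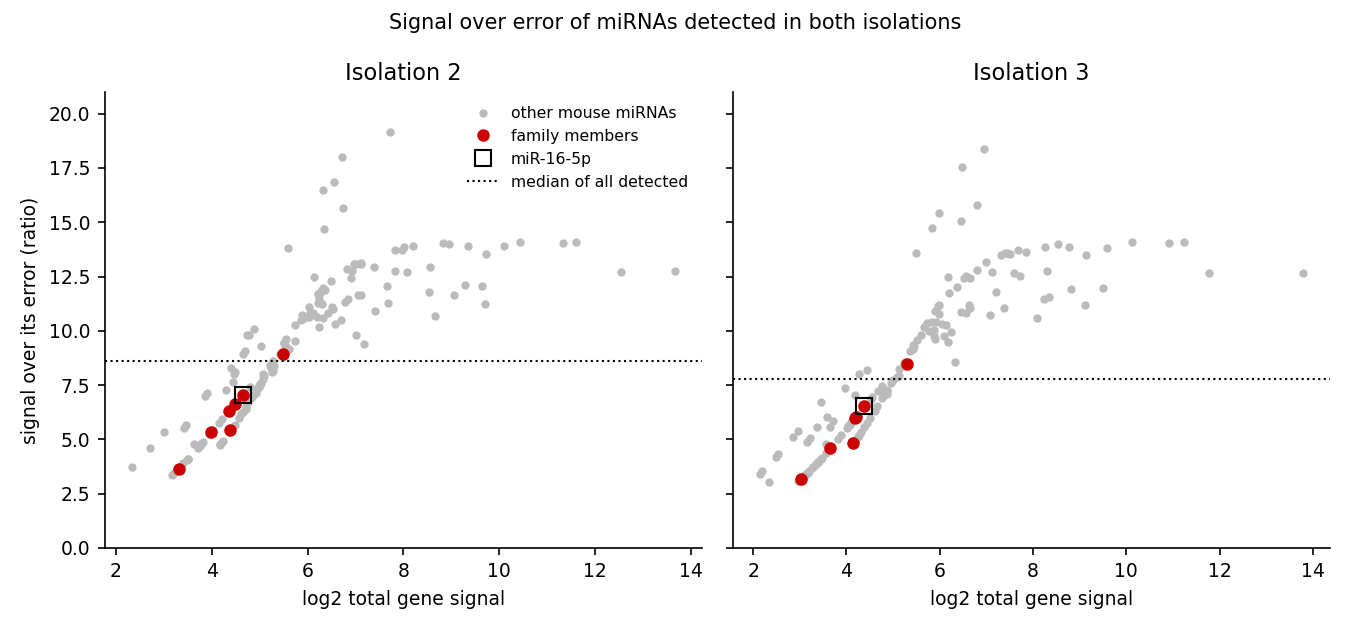
Signal over its error (y axis, a ratio) against log2 total gene signal (x axis) for the 164 mouse miRNAs detected in both isolations, with isolation 2 on the left and isolation 3 on the right. Family members are red, miR-16-5p has a black square, and the dotted line is the median of all detected miRNAs in that isolation. miR-15b-5p is the only red point above the line, and miR-107-3p is the lowest red point in each panel.

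Isolations 2 and 3 were then compared for each member. On the deposited scale all 7 detected members were lower in isolation 3, with differences in log2 signal (isolation 3 minus isolation 2) from -0.33 for miR-103-3p to -0.15 for miR-195a-5p and a median of -0.26. The arrays as a whole were shifted the same way, since the median over all 164 miRNAs detected in both was -0.39, and 150 of them were lower and 14 higher in isolation 3. The direction of the members depends on the scale: all 7 lay above the median shift, and all 7 were higher in isolation 3 after quantile normalization or after subtraction, in each array, of the median of the miRNAs detected in both isolations, of the 90th percentile of all mouse miRNAs or of the 75th percentile of those detected in all arrays. With the 75th percentile the rises were only 0.004 (miR-103-3p) to 0.19 (miR-195a-5p), each under the member's scanner error. With the median of all miRNAs detected in each array subtracted instead, a setting chosen after the data were seen, 6 were lower and 1, miR-195a-5p, was higher, by 0.03.

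The members' differences lay close together. Their differences spanned 0.18 on the log2 scale with an SD of 0.07, while those of all 164 miRNAs had an SD of 0.44 and a range from -1.87 to 0.90. A narrow spread was not particular to this family, since the let-7 miRNAs detected in both isolations lay between -0.46 (let-7f-5p) and -0.25 (let-7i-5p). For miR-16-5p the difference was -0.26, with a scanner error of 0.30. The others were -0.31 for miR-497-5p, -0.28 for miR-107-3p, -0.24 for miR-15a-5p and -0.18 for miR-15b-5p. All 7 differences were smaller than their own scanner errors, which ran from 0.23 to 0.60, against 29.9% of all 164 miRNAs. With the median shift of the arrays removed, the size of the remaining difference had a median of 0.13 over the members and 0.19 over all miRNAs. It stayed under the error for 7 of 7 members, and for 57.9% of all 164. All members except miR-15b-5p had an error above the median of 0.24 over all 164 miRNAs. On the deposited scale and with this median shift removed, no member's difference between isolations 2 and 3 was detectable at these errors. On other scales miR-15b-5p and miR-195a-5p exceeded their errors of 0.23 and 0.33. Their differences were 0.36 and 0.39 with each array's median over miRNAs detected in both isolations subtracted. They were 0.35 and 0.38 with the 90th percentile subtracted, and 0.30 and 0.38 after quantile normalization. The other members stayed under their errors there. Several members share much of their sequence, and binding of their probes to each other's miRNA was not tested. The 7 values are therefore not taken as independent measurements.

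**Figure D4:**
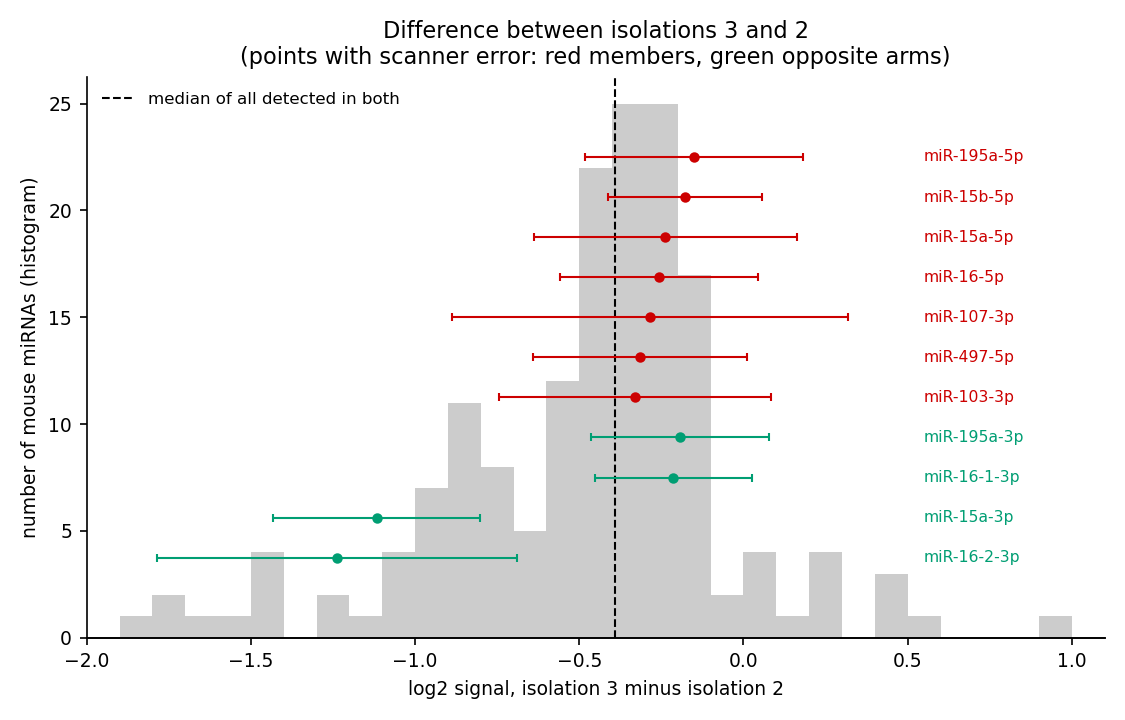
Histogram of the difference in log2 signal between isolation 3 and isolation 2 (x axis) for the 164 mouse miRNAs detected in both (y axis, number of miRNAs), with the family members (red) and opposite arms (green) drawn over it as points with scanner error at arbitrary heights. The dashed line is the median of all 164, -0.39. The 7 members lie between -0.33 and -0.15, while miR-15a-3p and miR-16-2-3p lie at -1.12 and -1.24.

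In isolation 1 the absence of calls left only limits. No mouse miRNA was detected there with a signal under 4.87, but detection followed the signal relative to its error, and the members' errors were large for their signals, so a member could have gone undetected above that value. The signal of miR-15b-5p was 9.15 times this lowest detected signal in isolation 2 and 8.09 times in isolation 3. For miR-16-5p the multiples were 5.12 and 4.28, and for miR-107-3p they were 2.03 and 1.67.

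A stricter limit, chosen after the data were seen, was 3 times the error that the same miRNA had in isolation 3. It ran from 7.70 for miR-107-3p, the dimmest member, to 13.9 for miR-15b-5p, the brightest. The limit thus depended in part on a member's own brightness in isolation 3. Against it miR-15b-5p was 3.20-fold higher in isolation 2 and 2.83-fold higher in isolation 3. For miR-16-5p these ratios were 2.60 and 2.17, and for miR-107-3p they were 1.29 and 1.06. The 84 miRNAs detected in all 3 arrays were also brighter in the later arrays, with a median difference of 1.37 on the log2 scale between isolations 2 and 1 and of 0.87 between isolations 3 and 1. For isolation 2, 6 of 7 members were above this median with the lowest detected signal as the limit. With the stricter limit it was 2 of 7, and of these miR-16-5p passed only narrowly, at 1.377 against 1.372. Whether the members differed between isolations 2 and 1 by more than the arrays as a whole thus depended on the limit assumed. The cause of the lower signals in isolation 1 was not tested. A lower level of the members in the vesicles cannot be told apart from the difference of the arrays as a whole. Nor can less RNA of a miRNA per vesicle be told apart from a smaller share of vesicles that carry it.

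The opposite arms gave a second reading of the same hairpins. Of 10 such features on the array, 4 were detected in isolations 2 and 3, where 15.2% of all mouse miRNAs were detected in both, and are shown with their own seeds in capitals, as RefSeq entries of GRCm38.p6.
miR-15a-3p: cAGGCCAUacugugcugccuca
miR-16-1-3p: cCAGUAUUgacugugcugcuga
miR-16-2-3p: aCCAAUAUuauugugcugcuuu
miR-195a-3p: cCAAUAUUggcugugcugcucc

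miR-195a-3p was detected in all 3 isolations, although its main arm was missed in isolation 1. Its signals in the 3 isolations were 8.26, 33.4 and 29.2, and the first of these was 3.21 times its error. The difference in log2 signal was 2.02 between isolations 2 and 1 with a scanner error of 0.49, and 19 of the 84 miRNAs detected in all arrays had a larger one. Its place in isolation 1 was 79th of 86 detected miRNAs. This arm thus supplied the only measured level of the family's hairpins in isolation 1, near the lower end of what that array detected.

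The miR-16 hairpins have separate opposite arms, and these gave unlike differences between isolations 2 and 3. miR-16-1-3p, from chromosome 14, gave 25.3 and 21.8, a difference of -0.21 with an error of 0.24. miR-16-2-3p, from chromosome 3, gave 18.7 and 7.95, a difference of -1.24 with an error of 0.55. The second exceeded its scanner error and the first did not. Relative to miR-16-5p the difference was 0.04 ± 0.39 (scanner error) for miR-16-1-3p and -0.98 ± 0.63 for miR-16-2-3p, and 10 of 164 miRNAs had a larger decrease than miR-16-2-3p on the deposited scale.

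For miR-15a-3p the difference was closer to that of miR-16-2-3p than to that of its own genomic neighbor miR-16-1-3p. It gave 22.4 in isolation 2 and 10.3 in isolation 3, a difference of -1.12 with an error of 0.32, and 11 of 164 miRNAs had a larger decrease. Its main arm, miR-15a-5p, differed by -0.24, so the opposite arm minus the main arm differed by -0.88 ± 0.51 (scanner error). For miR-195a the arms differed by -0.04 ± 0.43. The 2 arms with the large differences were also dim in isolation 3, at 5.54 times the error for miR-15a-3p and 3.11 times for miR-16-2-3p, and the part of this in the result was not tested.

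miR-16-5p was next judged as a reference for these arrays. A reference should be detected in every sample and should follow the arrays as a whole. miR-16-5p was detected in 2 of the 3 isolations, and in those its difference lay 0.13 above the median shift, which placed it 4th of the 7 members and 63rd of the 164 miRNAs by closeness to that median. miR-103-3p (0.06, 29th of 164), miR-497-5p (0.08, 36th) and miR-107-3p (0.11, 50th) were closer. miR-15a-5p (0.15, 70th), miR-15b-5p (0.21, 90th) and miR-195a-5p (0.24, 94th) were farther. With errors of 0.23 to 0.60 these places were not separated by the data.

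A list of 12 other miRNAs often proposed as references was set beside the family. Of these, 6 were detected in isolations 2 and 3 (miR-25-3p, miR-423-5p, miR-24-3p, miR-26a-5p, let-7a-5p and miR-92a-3p), where 15.2% of all mouse miRNAs were detected in both. Only let-7a-5p was detected in isolation 1 as well, where 7.97% of all mouse miRNAs were. Over these 6 and the 7 members, miR-16-5p was 9th of 13 by closeness to the median shift, while miR-26a-5p was nearest, at 0.01 with an error of 0.19. let-7a-5p lay at -0.06 with an error of 0.17. let-7a-5p thus combined detection in all 3 arrays with a smaller error than that of any member. Between isolations 2 and 3 it was also nearer to the median, at -0.058 against 0.061 for miR-103-3p. The difference between let-7a-5p and miR-16-5p was less than the errors. However, let-7a-5p did not follow the arrays from isolation 1. Its log2 signal was higher by 4.22 in isolation 2 (error 0.37) and by 3.77 in isolation 3. The medians over the 84 miRNAs detected in all arrays were 1.37 and 0.87, and 3 of the 84 had a larger difference between isolations 2 and 1.

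**Figure D5:**
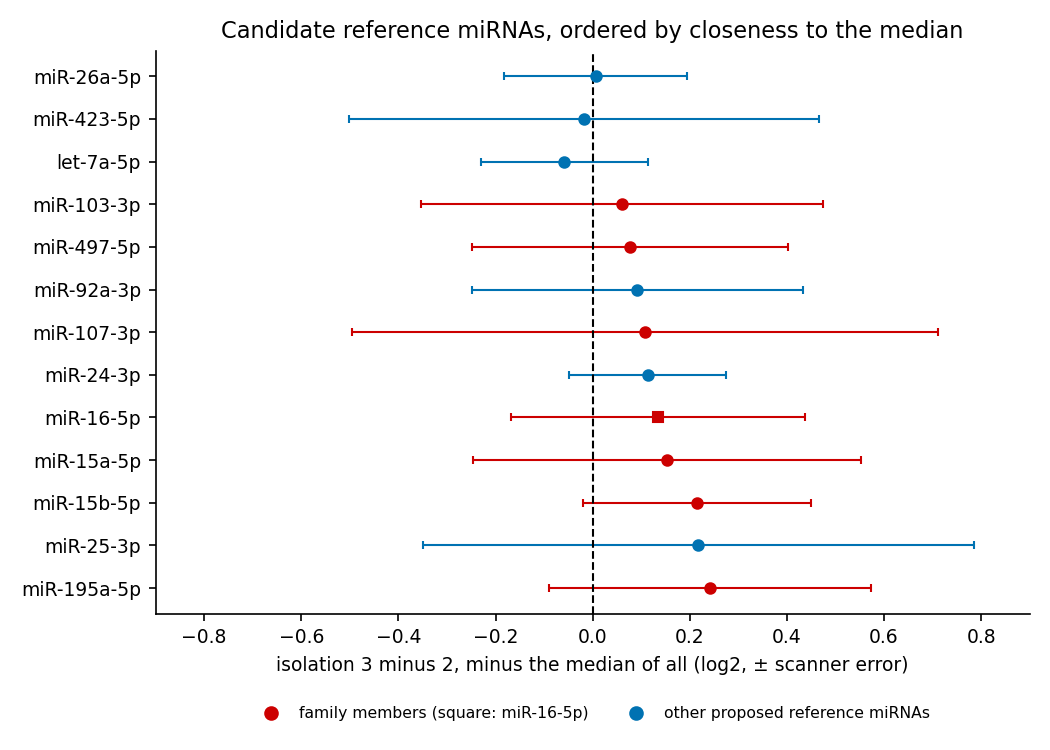
Difference in log2 signal between isolations 3 and 2 minus the median difference of all 164 miRNAs (x axis, bars are scanner errors) for the 7 detected members (red, miR-16-5p as a square) and the 6 detected miRNAs proposed as references (blue), ordered on the y axis by closeness to the median at 0. All 13 error bars include 0, and miR-16-5p is in 9th place.

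With miR-16-5p as the reference within the family, the offsets of the other members changed little between isolations 2 and 3. The mean offsets themselves ran from -1.35 for miR-107-3p to 0.88 for miR-15b-5p. Small changes were not particular to miR-16-5p as the reference, since the differences of all 7 members spanned only 0.18. The log2 signal of each other member minus that of miR-16-5p differed between isolations 2 and 3 by -0.07 to 0.11, with errors of 0.38 to 0.67, and 0 of 6 of these differences exceeded the error. The miRNAs that the study followed in MVs were set against each member in the same way. miR-125b-5p, the miRNA at the center of the study, differed by -0.58 between isolations 3 and 2 on its own, by -0.32 relative to miR-16-5p (error 0.36), and by -0.43 to -0.25 over the 7 members as references. It exceeded the combined error relative to 2 of them, miR-15b-5p (-0.40, error 0.30) and miR-195a-5p (-0.43, error 0.38), a pair named after the values were seen. Relative to miR-16-5p miR-21a-5p differed by -0.05, let-7c-5p by -0.06 and miR-199a-3p by -0.09. None of these 3 exceeded its error relative to any member. No value relative to miR-16-5p could be formed for isolation 1.

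The miRNAs most like miR-16-5p were sought among the 73 miRNAs that are not members and had the same calls in the 3 arrays. They were ordered by the larger of the differences in log2 signal in isolations 2 and 3. miR-16-1-3p was the nearest (0.06), followed by miR-1982-5p (0.12) and let-7g-5p (0.17). The order rests on 2 isolations and compares signals of different probes, so it is a likeness in brightness and not in the amount of RNA.

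The RNA was checked against miRNAs known from other cells. Of 8 miRNAs typical of mesenchymal cells, 4, 6 and 6 were detected in the 3 isolations in turn, with summed signals of 84.8, 1222 and 909, and miR-145a-5p and miR-143-3p were not detected. None of the 3 red blood cell miRNAs on the array (miR-451a, miR-144-3p and miR-144-5p) and none of 5 leukocyte miRNAs were detected in any isolation. Over all mouse miRNAs the shares detected were 7.97%, 16.6% and 15.2%, so counts of 0 for lists as short as these are near the background, and the part of other cells in the members' signals was not tested.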

How the data were processed

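MVs of MC3T3-E1 cells were isolated 3 times independently, and 1 Agilent mouse miRNA array was run per isolation. The tables that the authors deposited hold 1157 features per array, each with an intensity (total gene signal, linear scale), an error and a call of detection. The intensities were not normalized between arrays. The submitters' processing notes name Agilent Feature Extraction 10.10.1.1. Undetected features have a signal of 0.1 and an error of 1, and none of the 7 negative controls was detected in any array.

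From these, log2 signals, ratios of signal to error, and differences between isolations were calculated, with scanner errors propagated to the log2 scale. Means ± SD use isolations 2 and 3 (n = 2) and measure only the spread between these isolations. The number of arrays limits the precision, and 0 comparisons were tested. Functions were checked on simulated arrays.

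The miRNAs named are all members, detected opposite arms and neighbors, the detected miRNAs proposed as references, the miRNAs followed by the study, and the 3 miRNAs nearest to miR-16-5p. Members and lists were chosen with earlier results of these data known. The settings for alternatives were other detection limits, members, scalings, a pseudocount of 16, and each isolation left out. Sequences and loci are from RefSeq tables of GRCm38.p6. The array name miR-497-5p was matched to miR-497a-5p through the synonyms of Mir497. miR-486-5p and miR-103-2-5p have no feature on the array. Python 3.11.15, numpy 2.4.6, pandas 2.3.3 and matplotlib 3.10.9 were used.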

Additional observations from a re-analysis of the deposited data

How the results depend on the processing

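No paired analysis was possible because all arrays belong to 1 group. With 3 arrays, and 2 for any level, the precision is limited by the number of arrays, and signals of members were 3.17 to 8.94 times their errors. The count of members detected in all 3 isolations was 0 and became 1 with both arms of the hairpins included. Leaving out each isolation gave 0 to 7, the 7 without isolation 1. The count detected in at least 1 isolation was 7, became 11 with both arms, stayed at 7 with any isolation left out, and was 6 with a limit of 5 times the error. The median difference between isolations 3 and 2 over the members (-0.26) turned to 0.28 after subtraction of each array's median over the miRNAs detected in both isolations, 0.27 with the 90th percentile, 0.078 with the 75th percentile of miRNAs detected in all arrays, and 0.28 after quantile normalization. For miR-16-5p the same settings gave 0.28, 0.27, 0.078 and 0.19. These shifts follow from the scaling, since all signals of an array move together, apart from quantile normalization. With each array's median over all miRNAs detected in it, a setting chosen after the data were seen, both were -0.08 and did not turn. With log2(signal + 16) the median was -0.13 and miR-16-5p -0.15, and without miR-107-3p, a setting chosen after the data were seen, the median was -0.25. Leaving out isolation 2 or 3 could give no such difference, as no member was detected in isolation 1. The place of miR-16-5p was 4th of 7 under all centers except quantile normalization, where it was 2nd. Among all 164 miRNAs it ranged from 40th with no center to 84th with the 90th percentiles, and the cause was not tested.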
